A study of Homo sapiens with 24 samples.

Results

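The promoters of 9 genes of the MHC class I antigen presentation pathway, HLA-B, HLA-C, HLA-E, HLA-F, B2M, TAP1, TAP2, TAPBP and NLRC5, were examined in EndoC-βH3 cells, among 14581 protein-coding genes that had an H3K4me3 region at a promoter (of 19676 in all). H3K4me3 is trimethylation of histone H3 at lysine 4, a mark of active promoters. It was profiled by MINT-ChIP, in which nucleosome fragments of every sample are barcoded and pooled before the antibody is added. EndoC-βH3 is a human beta cell line immortalized with SV40 large T antigen and telomerase (hTERT), which can be cut out by a tamoxifen-activated Cre recombinase (CreER) that the cells carry. The genotype is labelled wild type for every sample, and both states come from this 1 line.

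The H3K4me3 samples were 4 of non-senescent cells (treatment given as control) and 4 of senescent cells, each of 500000 cells. The senescent cells had received 3 weeks of 4-hydroxytamoxifen (1 mM per the labels, 1 μM per the study's methods). The rule for the members is a list of genes of the pathway and uses no measured value. The list was, however, chosen with earlier results of these data known. For each gene, every deposited region that overlapped 2 kb on either side of a start site of a protein-coding GENCODE transcript was collected, and the strongest served as its value. This gave 11 regions for the 9 genes, out of 97545 regions in the table. The level of a region is the authors' mean normalized count, a mean over samples in which both states are taken to be pooled. Which samples entered it is not given in the sources used here, and the 8 H3K4me3 samples are assumed. No value per sample was used. Sequencing depth is therefore unknown, no replicate error can be attached to a level, and differences between genes below are descriptions without a test. The authors' own fold changes and p-values between the states were not used, so nothing is said here of a change with senescence.

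MHC class I molecules carry short peptides of the cell's own proteins to the surface, where cytotoxic T cells inspect them. The heavy chains (HLA-B and HLA-C among the classical ones, HLA-E and HLA-F among the nonclassical ones) pair with beta-2 microglobulin, the product of B2M. TAP1 and TAP2 form the pump that moves peptides into the endoplasmic reticulum, tapasin (TAPBP) joins the pump to the empty heavy chain, and NLRC5 is a transactivator that binds no DNA itself but works through factors already on the class I promoters. Class I molecules on beta cells are what autoreactive cytotoxic T cells recognize in type 1 diabetes. Class I promoters are known for a module of an X box, with a core like a cyclic AMP response element (CRE), followed by a Y box, the inverted CCAAT sequence, and for an interferon-response element and an NF-kB site upstream of it.

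The promoter sequences are shown because the deposited regions lie over them and because the heavy chain genes share their letters. RefSeq windows of 300 bases (GRCh38.p14), from 250 bases before the start site, were held for 7 of the 9 genes, and not for HLA-E and NLRC5. The letters below are written 5′ to 3′ in the direction of transcription. Capitals mark CCAAT (Y box core), TGACG (CRE core) and GAAANNGAA (a pair of half-sites for interferon regulatory factors), each on either strand. The HLA-B window is chr6:31357130-31357429, minus strand, HLA-C is chr6:31272043-31272342, minus strand, HLA-F is chr6:29723184-29723483, plus strand, B2M is chr15:44711267-44711566, plus strand, TAP1 is chr6:32853655-32853954, minus strand, and TAPBP is chr6:33314029-33314328, minus strand.
HLA-B: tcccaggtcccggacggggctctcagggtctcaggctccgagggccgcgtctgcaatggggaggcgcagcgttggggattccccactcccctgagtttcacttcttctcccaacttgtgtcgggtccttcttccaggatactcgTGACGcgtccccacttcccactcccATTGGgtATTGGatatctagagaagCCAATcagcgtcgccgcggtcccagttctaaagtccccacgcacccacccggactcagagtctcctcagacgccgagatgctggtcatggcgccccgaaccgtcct
HLA-C: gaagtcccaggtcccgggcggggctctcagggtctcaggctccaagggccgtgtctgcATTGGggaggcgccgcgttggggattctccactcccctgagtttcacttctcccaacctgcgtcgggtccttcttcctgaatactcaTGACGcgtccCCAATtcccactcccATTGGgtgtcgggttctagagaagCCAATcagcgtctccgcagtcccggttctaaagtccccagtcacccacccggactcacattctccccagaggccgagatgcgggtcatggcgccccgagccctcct
HLA-F: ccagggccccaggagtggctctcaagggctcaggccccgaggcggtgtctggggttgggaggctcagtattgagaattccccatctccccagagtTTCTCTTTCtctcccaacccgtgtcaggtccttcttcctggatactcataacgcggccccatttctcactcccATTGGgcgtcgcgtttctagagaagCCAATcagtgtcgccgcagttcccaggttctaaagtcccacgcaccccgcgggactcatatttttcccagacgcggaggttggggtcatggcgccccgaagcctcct
B2M: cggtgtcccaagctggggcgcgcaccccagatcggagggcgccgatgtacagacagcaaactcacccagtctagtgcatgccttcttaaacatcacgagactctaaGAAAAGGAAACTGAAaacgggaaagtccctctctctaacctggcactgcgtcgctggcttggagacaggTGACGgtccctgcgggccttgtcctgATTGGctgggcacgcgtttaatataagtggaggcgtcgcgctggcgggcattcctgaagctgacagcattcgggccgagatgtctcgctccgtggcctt
TAP1: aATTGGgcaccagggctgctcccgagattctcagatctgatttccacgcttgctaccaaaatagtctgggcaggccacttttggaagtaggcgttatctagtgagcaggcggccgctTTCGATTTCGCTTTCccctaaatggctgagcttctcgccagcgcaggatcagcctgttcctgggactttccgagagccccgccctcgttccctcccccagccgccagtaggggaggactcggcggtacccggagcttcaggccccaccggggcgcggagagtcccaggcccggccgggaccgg
TAPBP: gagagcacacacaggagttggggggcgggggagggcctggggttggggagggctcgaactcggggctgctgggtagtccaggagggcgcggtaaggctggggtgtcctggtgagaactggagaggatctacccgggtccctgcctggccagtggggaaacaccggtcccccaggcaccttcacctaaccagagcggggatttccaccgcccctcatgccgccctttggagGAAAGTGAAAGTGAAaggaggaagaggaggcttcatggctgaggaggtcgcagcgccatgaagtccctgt

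After global alignment, HLA-B and HLA-C were identical at 269 of 300 bases (89.7%), and HLA-F was identical at 81.0% with each of them. HLA-B and B2M, which are not related in sequence, reached 59.0% by the same alignment.

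By level per region, the peptide-binding chains and their partner spanned the whole range of the 9 genes. HLA-B, a classical heavy chain, had the lowest level of the 9 genes, with an authors' mean of 7.18 normalized counts in its main region (chr6:31356589-31357223, minus strand), at percentile 10.2 of all promoters with a region. Because its region was also the narrowest of the members, at 634 bp, the density was 11.3 normalized counts per kb, at percentile 21.2. HLA-B was the only member with more than 1 region (8 of the 9 genes had a single region, as had 62.9% of all promoters). The other regions, at 500 bp each, had authors' means of 2.46 (chr6:31366726-31367226, over 4 start sites of upstream transcripts) and 1.90 (chr6:31355525-31356025, over intron and exon 4).

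HLA-C, the other classical chain, had an authors' mean of 20.2 normalized counts over chr6:31270874-31272838, minus strand. Its region was 1964 bp wide, and its density of 10.3 per kb was close to that of HLA-B. HLA-F had an authors' mean of 16.7 normalized counts over chr6:29722589-29724625, plus strand, and a density of 8.18 per kb, at percentile 10.8. These 3 heavy chain genes lay in a narrow band per kb, all below the lower quartile of all promoters (12.4 per kb).

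HLA-E, which presents leader peptides of other class I chains to receptors on natural killer cells, stood apart from the other heavy chain genes. Its region, chr6:30489552-30491054 on the plus strand, had an authors' mean of 83.8 normalized counts in 1502 bp, at percentile 72.6 per region and close to TAPBP (82.9). The density was 55.8 per kb, at percentile 99.0, which placed HLA-E at rank 146 of the 14581 promoters. Per kb this was 4.93 times HLA-B and 5.41 times HLA-C.

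B2M had the highest values of the 9 genes on both scales. The authors' mean was 242 normalized counts over chr15:44710681-44714390, a region of 3709 bp, and the density was 65.1 per kb, at rank 49 of all promoters. The region also lies within 2 kb of a start site of PATL2, so its reads cannot be assigned to B2M alone. B2M and HLA-E were the members above 40.7 per kb, the level that 5% of all promoters exceed.

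Among the genes of peptide transport and loading, TAPBP was the strongest, with an authors' mean of 82.9 normalized counts over chr6:33311635-33314822, minus strand, and 26.03 per kb (percentile 72.8). TAP1 had an authors' mean of 36.4 normalized counts over chr6:32852874-32855279, minus strand, and 15.2 per kb (percentile 34.8). That region also lies within 2 kb of a start site of PSMB9, an immunoproteasome subunit that is transcribed away from TAP1. TAP2 had an authors' mean of 14.5 normalized counts over chr6:32837186-32839074, minus strand, and 7.67 per kb, the lowest density of the members (percentile 9.35). The regions of these 2 subunits of the same pump had densities of 15.2 (TAP1) and 7.67 per kb (TAP2), without replicate error. Reads of the TAP1 region cannot be assigned to TAP1 alone. With a 5 kb window TAP2 took a region at PSMB8 and PSMB9 with 47.7 normalized counts, above TAP1 (36.4). Another annotated gene, ENSG00000250264, shares the TAP2 region.

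The TAP2 and TAP1 regions stand on the same stretch of chromosome 6 with 1 region between them. This middle region, chr6:32843033-32845228, lies at start sites of PSMB8 and PSMB9, had an authors' mean of 47.7 normalized counts and 21.7 per kb, and was separated by 3959 bp from the TAP2 region and by 7646 bp from the TAP1 region. Density thus rose from TAP2 to the shared immunoproteasome region and was intermediate at TAP1.

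NLRC5, the transactivator, had an authors' mean of 20.02 normalized counts over chr16:56989067-56990283, plus strand. The region was 1216 bp wide, and its density of 16.5 per kb lay at percentile 39.8, below the median of all promoters (19.0 per kb). Per region it was at percentile 23.4, below the lower quartile.

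**Figure D1:**
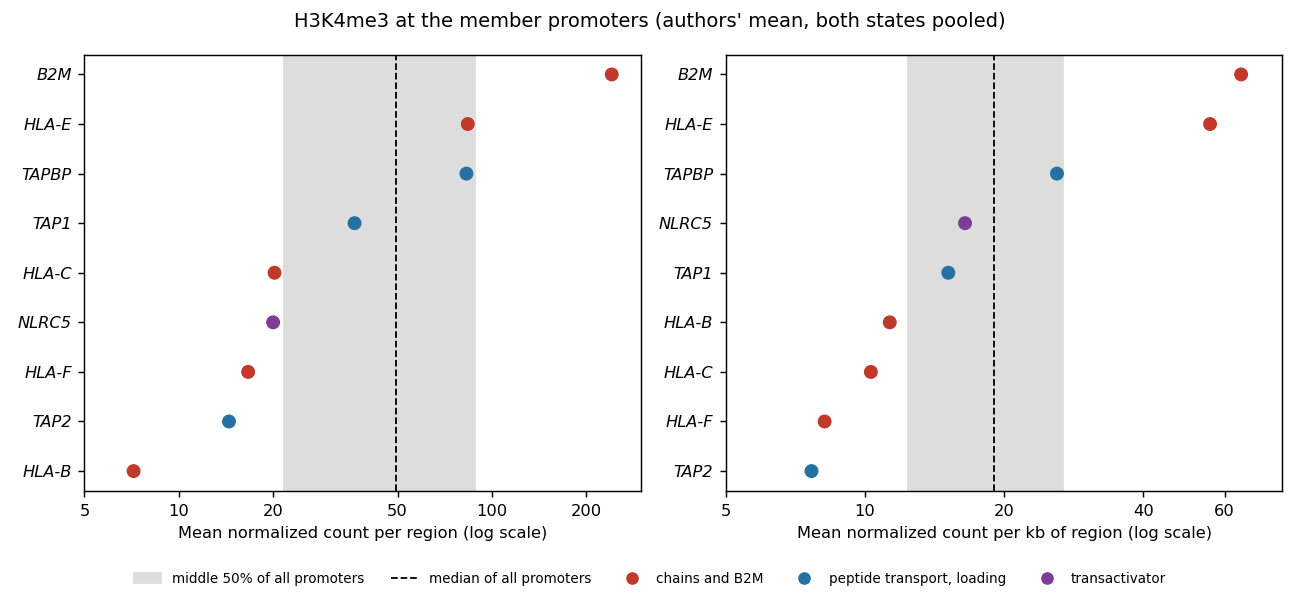
Level of the main H3K4me3 region of each member, as the authors' mean normalized count per region (left) and per kb of region width (right), both on log axes, with both cell states pooled and no replicate error. Points are genes colored by role, the grey band is the middle 50% of all promoters and the dashed line their median. B2M and HLA-E lie to the right of the band per kb, and HLA-B, HLA-C, HLA-F and TAP2 to its left.

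Per kb, the order was B2M, HLA-E, TAPBP, NLRC5, TAP1, HLA-B, HLA-C, HLA-F and TAP2, with an 8.49-fold range. Several neighbors were close, with ratios of 1.17 between B2M and HLA-E, 1.09 between NLRC5 and TAP1, 1.10 between HLA-B and HLA-C and 1.07 between HLA-F and TAP2. With no replicate values, such ratios cannot be told from equality. The widest step was 2.14-fold, between HLA-E and TAPBP. Of the 9 genes, 3 were above the median promoter, both per region and per kb (by construction 50% of all promoters are). By level per region, 5 of the 9 lay below the lower quartile, where 25% of all promoters lie, and the median of the members was at percentile 23.5. Per kb the median was at percentile 34.8. The scales differ only by the division by region width, and 7 of the 9 regions were narrower than the median promoter region of 2498 bp.

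The position of the regions relative to the start site also differed among the members. The main regions of 8 of the 9 genes contained the canonical start site, and of 13448 promoters whose main region lay within 2 kb of that site 71.7% did. HLA-E was the exception, with a region that began 43 bp downstream of the start and ran to 1545 bp, over introns (60.7% of its bases) and coding parts of exons 1 to 3 (39.3%). Regions that began downstream of the canonical start made up 18.5% of those promoters. HLA-B reached 44 bp upstream and 590 bp downstream, over exons 1 and 2 and the introns beside them. Of all regions that contained their canonical start, 0.705% reached no farther upstream, and the median was 1109 bp.

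HLA-C and HLA-F extended 746 and 845 bp upstream, and like HLA-E they touched exons 1 to 3. The B2M region ran from 836 bp upstream to 2873 bp downstream, and 74.8% of it lay in intron 1. TAP1 was the member with most of its region, 65.4%, upstream of the gene, on the side of PSMB9, with 24.9% in coding sequence of exon 1. TAP2 and TAPBP lay mostly inside the gene, with 17.7% and 23.3% upstream. In NLRC5, 40.3% of the region was upstream, 5.02% in the untranslated exon 1 and 54.7% in intron 1.

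**Figure D2:**
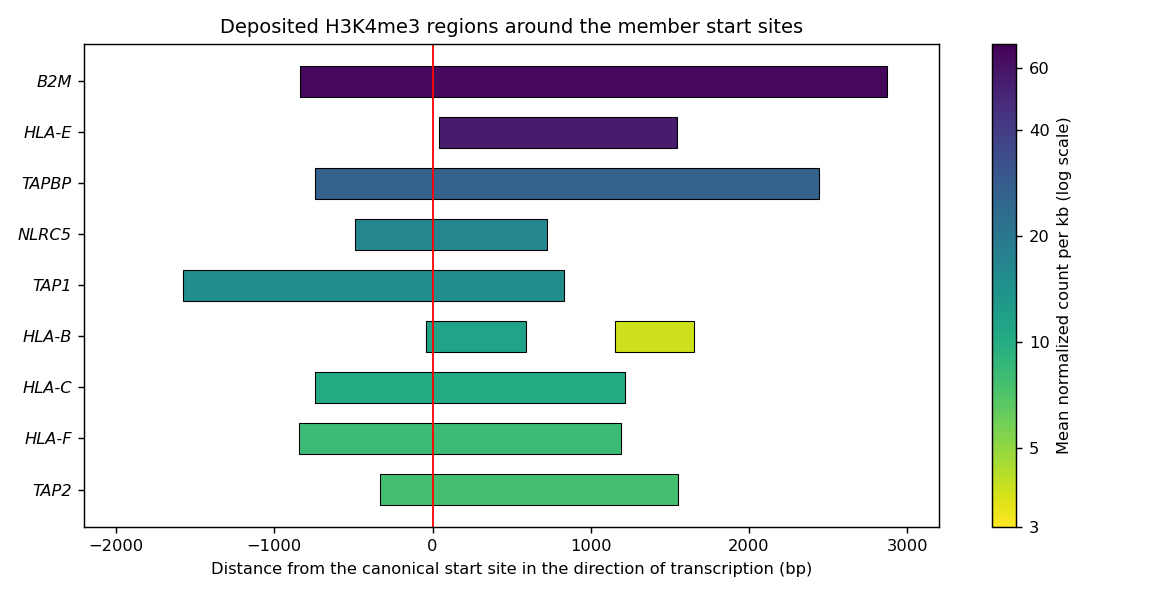
Deposited regions of each member by distance in bp from the canonical start site (red line) in the direction of transcription, colored by the authors' mean normalized count per kb on a log scale. The HLA-E region begins 43 bp after the start, the HLA-B region reaches 44 bp before it, and the HLA-B region over upstream transcripts lies outside the plotted range.

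The motif letters in the 8 windows of these 7 genes, of which 6 are printed above, were compared with all 21613 RefSeq windows of protein-coding genes. CCAAT was found in 5 of the 8 member windows (TAP1 has 2) and in 34.9% of all windows. TGACG was found in 4 and in 28.0% of all. GAAANNGAA was found in 5 (B2M, HLA-F, TAP1, TAP2 and TAPBP) and in 7.07% of all. The letters TTCNNNGAA of the gamma-interferon activation site occurred in 1 member window, the second one of TAP1, and in 6.80% of all. The NF-kB site occurred in 5 windows (12.7% of all). These counts describe letters in short windows, of which those of HLA-B, HLA-C and HLA-F are related in sequence, and no match says only that the letters are not in the window.

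In HLA-B, HLA-C and B2M a CRE core was followed by an inverted CCAAT. Counted from the start site at position 0, CRE and inverted CCAAT cores began at −106 and −81 in HLA-B and at −105 and −80 in HLA-C, a spacing of 25 bases in both. HLA-B had another inverted CCAAT at −74, and HLA-C had an inverted CCAAT at −192 and a forward one at −95. B2M had the same order at −75 and −49, a spacing of 26 bases. A TGACG followed by the inverted CCAAT at a spacing of 25 or 26 bases, a range taken from the members after it was seen, occurred in 22 of all windows (0.102%), 3 of them HLA-B, HLA-C and B2M. HLA-F had the inverted CCAAT at −82 but no TGACG. A further CCAAT began at −56 in HLA-B and HLA-C and at −57 in HLA-F. Paired interferon regulatory half-sites overlapped each other in B2M, TAP1 and TAPBP.

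The deposited regions covered these windows unequally. All 300 bases lay inside the main region for HLA-C, HLA-F, B2M, TAP2, TAPBP and the first TAP1 window. For HLA-B, 94 of the 300 bases did, so that its TGACG and all of its CCAAT letters lay outside the region.

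**Figure D3:**
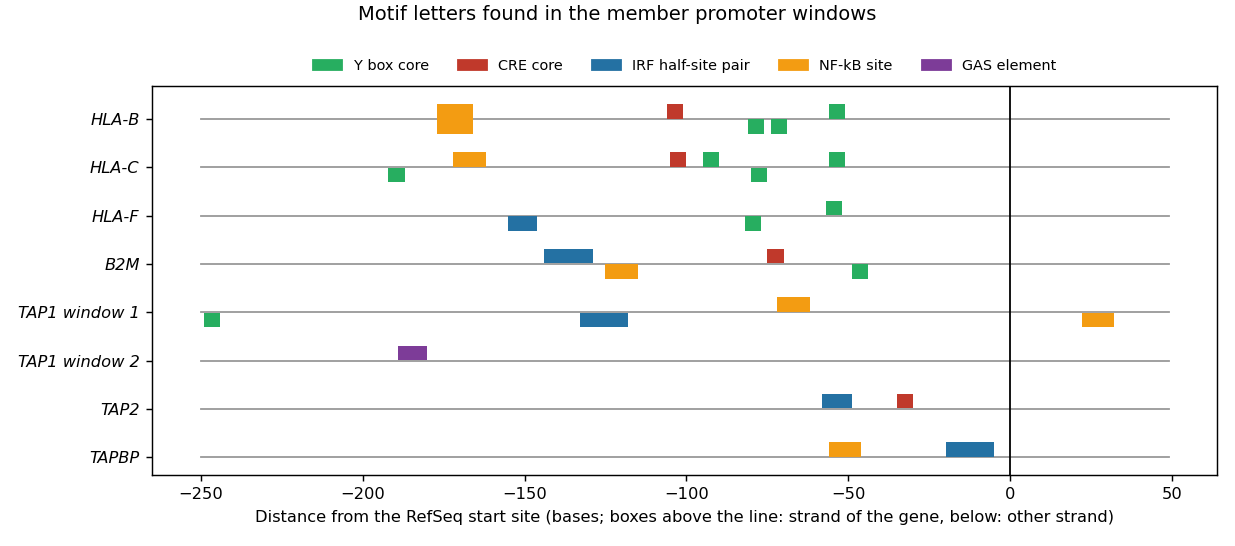
Position of motif letters in the RefSeq promoter windows of 7 members, by distance in bases from the start site (vertical line). Boxes above a line are on the strand of the gene and boxes below it on the other strand. Green marks Y box cores, red CRE cores, blue interferon regulatory half-site pairs, orange NF-kB sites and purple the gamma-interferon activation site. The CRE core and the inverted Y box core after it begin at −106 and −81 in HLA-B and at −105 and −80 in HLA-C.

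Heavy chain genes resemble each other in sequence, and short reads from one might be placed on another, so the uniqueness of each region was measured in hg38. Of the 24-base stretches of the main region, 67.2% occurred once in the genome for HLA-B and 73.4% for HLA-C. Lower shares were found at 3.07% and 5.08% of promoter regions. HLA-F was at 87.0%, HLA-E at 92.8%, B2M at 94.1%, and TAP1, TAP2, TAPBP and NLRC5 at 99.2% or more. The median over all main regions was 96.7%. With 50-base stretches the shares were 99.8% for HLA-B, 96.2% for HLA-C, 93.6% for HLA-F and 100% for HLA-E. HLA-B shared 11.9% of its 24-base stretches with the HLA-C region and 5.72% with the HLA-E region, and no 50-base stretch was shared between the main regions of any pair of members.

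How far reads of the length used could be placed on the wrong copy depends on that length, and the part of multiple mapping in the levels of HLA-B, HLA-C and HLA-F was not tested. The reference also holds alternate loci, with copies of 50-base stretches for 100% of the HLA-E, TAP1, TAP2 and TAPBP regions, 93.4% of B2M, 92.2% of HLA-F, 88.6% of HLA-C and 71.5% of HLA-B, and for none of the NLRC5 region. Of all main regions, 19.7% had any sampled stretch on such a locus. Whether the authors' alignment included those loci is not given in the sources used here, and the cell line's own HLA alleles were not analysed here.

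**Figure D4:**
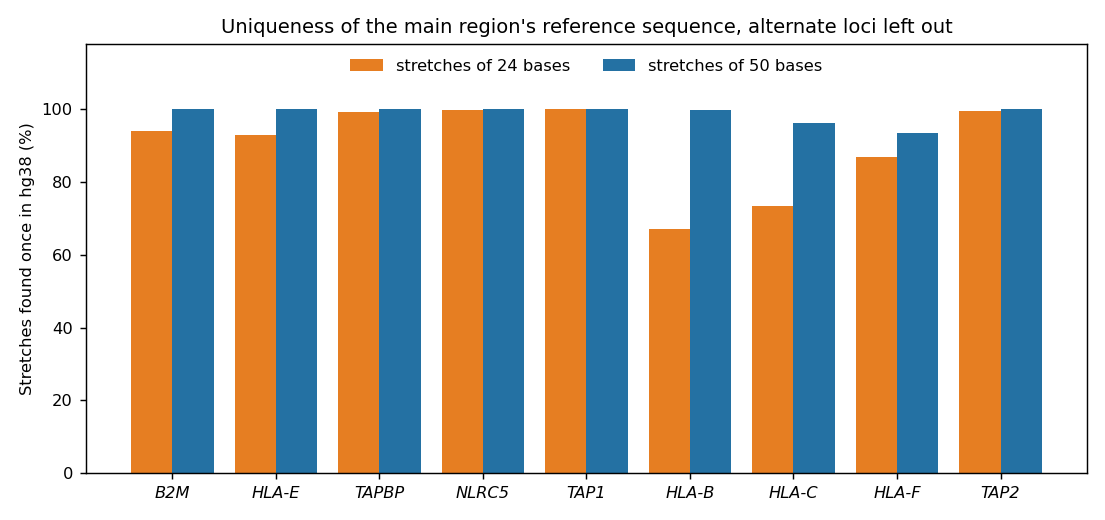
Share of stretches of 24 bases (orange) and 50 bases (blue) in each member's main region that occur once in hg38, both strands searched and alternate loci left out. HLA-B and HLA-C have the lowest shares at 24 bases, 67.2% and 73.4%, and HLA-F the lowest at 50 bases, 93.6%.

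The heavy chain regions were rich in G and C, with 69.9% in HLA-B, 62.1% in HLA-C, 60.5% in HLA-E and 59.3% in HLA-F, against a median of 51.5% over all main regions. This was not particular to them, since NLRC5 and TAP1 (60.6% each), TAPBP (55.6%) and TAP2 (55.5%) were also above that median. B2M, the strongest member, was the one below that median, at 47.2%. HLA-E and HLA-F were close in GC content and lay at percentiles 99.0 and 10.8 per kb. The part of GC content in the levels was not tested.

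The other genes of the class I pathway all had a promoter region, 24 of 24, where 74.1% of protein-coding genes have one. Of these, 16 were above the median promoter per kb and 13 per region, and their median lay at percentile 57.3 per kb. Folding, editing and trimming factors of the endoplasmic reticulum were highest, with 5 of 6 above the median per kb, from PDIA3, an oxidoreductase of the loading complex, at 59.1 per kb to ERAP1, an aminopeptidase that trims peptides, at 13.5. The immunoproteasome and its activator had 4 of 5 above the median per kb, between PSMB10 at 29.1 per kb and PSME2 at 15.7, but 1 of 5 above the median per region. PSMB8 and PSMB9 have the same main region, which is counted for each of them.

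Factors known to bind class I promoters had 7 of 13 above the median per kb. RFX5, the X box factor, was the highest at 43.4 per kb, and IRF1, an activator in the interferon response, was the lowest at 6.77 per kb, below every member. IRF2, another interferon regulatory factor, was also low (8.61 per kb).

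MHC class II genes, which serve professional antigen-presenting cells, were examined beside the class I genes, all 9 of which had a region. Of 9 class II genes, 7 had no region within 2 kb of a start site, HLA-DRA, HLA-DPA1, HLA-DPB1, HLA-DMB, HLA-DOA, HLA-DOB and the class II transactivator CIITA. The nearest regions to them were 2361 to 18602 bp away. HLA-DMA had a region with 23.96 normalized counts per kb, but of 11392 bp and shared with BRD2, a broadly expressed chromatin reader. The remaining gene, CD74, had a weak region 1822 bp from a start site, at 2.57 per kb.

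The label of a beta cell line was checked against marker promoters. All 10 beta cell markers had a region, 7 of them above the median per kb and 9 per region, with densities from 11.1 normalized counts per kb at ABCC8 to 38.1 at ISL1. INS, whose region is shared with IGF2, was at 14.0 per kb. Among leukocyte markers, PTPRC, CD3E and ITGAM had no region, CD14 had 14.0 normalized counts per kb and LYZ 2.65. Of 7 markers of other pancreatic cells 4 had a region, with 2.24 (PRSS1) to 15.3 (PECAM1) normalized counts per kb. Per kb, ABCC8 was thus below CD14 and PECAM1, and INS was level with CD14, while none of the leukocyte and other pancreatic markers was above the median promoter on either scale.

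**Figure D5:**
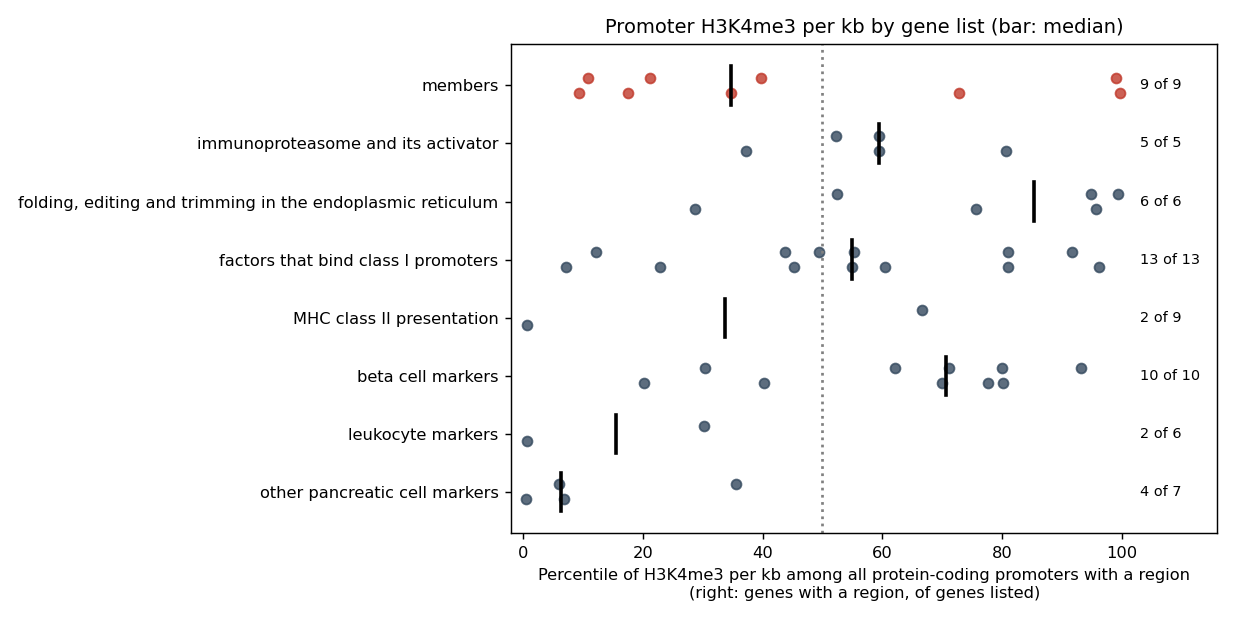
Percentile of promoter H3K4me3 per kb among all protein-coding promoters with a region, for each gene of the lists (points, members in red) with the median of each list (black bar); the numbers at the right give genes with a region of genes listed. Members spread from percentile 9.35 to 99.7, and 7 of the 9 class II genes have no point.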

How the data were processed

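MINT-ChIP for H3K4me3 covered 8 samples, 4 of each state, and the 16 samples of other marks were not analysed here. Per the labels and the methods, alignment to hg38 used Bowtie2, and the authors then used samtools, found peaks with HOMER and ran DESeq2. Tool versions, the merging of peaks, duplicate removal and counting are not given in the sources used here. The deposited signal of a region is the authors' mean of DESeq2-normalized counts, not corrected for width. The other 5 columns hold the authors' comparison of the states (log2 fold change, its standard error, statistic, p-value and adjusted p-value) and were not used.

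Start sites came from protein-coding transcripts of GENCODE release 44, with a window of 2000 bp on either side, and the region with most signal was kept. All 97545 regions lay within the chromosome lengths of the hg38 reference. Level per kb is the mean divided by the region width. Percentiles are among 14581 genes with a region, with no test. Copies were counted over 194 hg38 sequences on both strands, at all positions for members and at 60 positions for other regions. Motif letters were searched in RefSeq windows. The region linking, copy counts and motif search were tested on simulated data. The text names all members, genes that share a region with one, and the highest and lowest of each list. IRF2, the genes without a region and RGL2 were named after their values were seen. The members and lists were chosen with earlier results of these data known. Alternatives were the window, the choice of region and of start sites, the scale and the set ranked against, and 1 of them, start sites of all transcripts, was added after the data were seen. Python 3.11.15, numpy 2.4.6, pandas 2.3.3, scipy 1.17.1, numba 0.67.0 and matplotlib 3.10.9 were used.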

Additional observations from a re-analysis of the deposited data

How the results depend on the processing

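Levels of the 9 genes were recomputed under 6 alternatives with another window, region or set of start sites, and 52 of 54 values did not change. TAP2 rose from 14.5 to 47.7 normalized counts with a 5 kb window, because the stronger region at PSMB8 and PSMB9 came into reach, and HLA-B rose from 7.18 to 11.5 when its 3 regions were summed. The median percentile of the members was 23.5, and moved to 40.5 with the 5 kb window and to 34.8 per kb of region width. The count of members above the median promoter was 3 under these alternatives, and 9 when the median of all regions in the table (4.40 normalized counts) replaced that of promoters. Per kb, HLA-E moved from percentile 72.6 to 99.0, NLRC5 from 23.4 to 39.8 and HLA-B from 10.2 to 21.2. No paired analysis was possible because the levels come from no test and no value per sample was used, and for the same reason no replicate could be left out. Depth per sample is unknown, so no interval is given.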

Other observations

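Across the interval of chromosome 6 from the HLA-F to the TAPBP promoter region (chr6:29722589-33314822), 179 H3K4me3 regions were deposited, and 96 of 146 protein-coding genes had one at a promoter (65.8%, against 74.1% of all genes). The 7 members in the interval had a median of 11.3 normalized counts per kb, and the 89 other genes with a region had 21.8. These are medians of pooled means, and the difference was not tested.

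Inside the member genes, regions away from the promoter were few. NLRC5, which spans 93964 bp, held 1 more region, centered 72310 bp from its start, with 4.88 normalized counts and no protein-coding start site within 2 kb. TAPBP held a region at its far end (81.8 normalized counts) that lies at a start site of RGL2, and TAP1 ends in the region at PSMB8 and PSMB9. HLA-C, HLA-E, HLA-F, B2M and TAP2 held none beyond the promoter region.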
